A study of Homo sapiens with 60 samples.

Results

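MET, MST1R, AXL, TYRO3, MERTK and EPHA2 are receptor tyrosine kinases that can carry growth and survival signals when the epidermal growth factor receptor (EGFR) is blocked, and HGF and GAS6 are secreted ligands of MET and of the AXL family. These 8 genes were taken by name from a list of bypass receptors and their ligands, and all 8 are among the 19712 genes of the deposited tables. They were followed by bulk RNA sequencing in PC9, HCC827, NCI-H1975 (H1975 below) and HCC2935, 4 established lung adenocarcinoma lines whose growth depends on mutant EGFR. Each line was sampled in 5 arms of 3 biological replicates, 60 libraries in all. Parental cells kept in drug-free medium for 21 days received the vehicle DMSO for 24 h, or 500 nM osimertinib, an irreversible inhibitor of mutant EGFR, for 24 h (acute). Drug-tolerant persisters (DTPs) were the cells still present after 21 days in 500 nM osimertinib. After the same 21 days the drug was removed for 24 h (short washout) or until growth had resumed (long washout), which took 7 days in PC9, 96 h in HCC827, 72 h in H1975 and 10 days in HCC2935. The long washout therefore differs in length between lines. RNA came from whole cultures, where fewer cells that express a gene and less of its RNA per cell cannot be told apart.

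A receptor tyrosine kinase binds its ligand outside the cell, pairs with another receptor and is phosphorylated inside, which feeds the RAS-ERK and PI3K-AKT pathways that EGFR also uses. MET is the receptor of hepatocyte growth factor (HGF), and MST1R (RON) is its close relative, which binds macrophage-stimulating protein, the product of MST1. AXL, TYRO3 and MERTK form the TAM family, whose ligands GAS6 and protein S (PROS1) bridge them to phosphatidylserine on membranes. EPHA2 binds ephrin-A ligands on neighbouring cells and can also signal without a ligand. Extra copies of MET and raised AXL are known routes by which EGFR-mutant tumours escape EGFR inhibitors. Transcript levels do not show receptor protein, phosphorylation or copy number, none of which was measured here.

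Assigned counts ranged from 17700000 to 25100000 per library in HCC827 and from 18600000 to 25600000 in HCC2935, against 34700000 to 47100000 in PC9 and 38700000 to 49100000 in H1975. A count of 3, taken as the limit of detection, corresponded to 0.0581 to 0.168 CPM (normalized counts per 1000000). The 6 epithelial markers averaged at least 1 CPM in every line. The 8 outputs of ERK signalling checked for drug action fell from 672 ± 48.1 to 82.4 ± 34.6 summed CPM in PC9, from 480 ± 61.0 to 193 ± 23.2 in HCC827, from 426 ± 29.8 to 148 ± 29.4 in H1975 and from 714 ± 11.6 to 122 ± 7.39 in HCC2935 (mean ± SD, n = 3, DMSO and acute), and 30 of their 32 gene-by-line tests were called lower. No library resembled another line more than its own, and 12 of the 60, all of the DTP or washout arms, resembled another of these arms more than their own. Over all genes 24.5% of gene-by-line tests were called lower after 24 h and 26.4% in DTPs. Against DMSO the 6 proliferation genes were called lower in all 24 gene-by-line tests, both after 24 h and in DTPs. Their summed level after the long washout was above that of DTPs in PC9 (1280 ± 279 against 592 ± 7.61 CPM) and HCC2935 (1030 ± 287 against 379 ± 152 CPM). In HCC827 it was 860 ± 74.8 CPM in the long washout, 882 ± 288 CPM in DTPs and 2500 ± 98.7 CPM under DMSO, and in H1975 659 ± 124, 781 ± 370 and 2390 ± 185 CPM. The summed level in the short washout was 1060 ± 400 CPM in HCC827 and 1340 ± 249 CPM in H1975. No proliferation gene was called in the short washout against DTPs. The DTP libraries were spread, from 575 to 1150 CPM in HCC827 and from 445 to 1180 CPM in H1975. The long washout means of these 2 lines thus did not exceed those of DTPs, although by the label growth had resumed.

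The lines differed in which receptors they expressed before treatment. Under DMSO the 3 HCC827 libraries held 1122, 1073 and 1030 CPM of MET, the H1975 libraries 553, 472 and 578 CPM, the HCC2935 libraries 440, 442 and 415 CPM and the PC9 libraries 153, 178 and 164 CPM. HCC827 stood above the other lines, H1975 and HCC2935 came next without overlap of their libraries but did not differ by the test (log2 difference 0.33, SE 0.16, edgeR adjusted p = 0.072), and PC9 was lowest. AXL ran another way, with 221 ± 15.3 CPM in PC9, 138 ± 53.9 in H1975, 28.6 ± 10.2 in HCC2935 and 19.1 ± 3.78 in HCC827 (mean ± SD, n = 3), and the last pair of neighbours did not differ by the test (edgeR adjusted p = 0.12). PC9 and H1975 were separated less firmly, by 0.69 on the log2 scale (SE 0.31, edgeR adjusted p = 0.047). EPHA2 was at 257 ± 52.8 CPM in HCC2935, 238 ± 27.7 in PC9, 178 ± 65.4 in HCC827 and 112 ± 19.5 in H1975, with no difference past the test among the first 3 and H1975 below each of them. MERTK spanned the widest range of the receptors, from 3.49 ± 0.137 CPM in PC9 through 7.38 ± 2.94 in H1975 and 28.4 ± 4.26 in HCC827 to 52.5 ± 2.42 in HCC2935, each step past the test.

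MST1R ordered as HCC2935 (129 ± 12.4 CPM), PC9 (93.5 ± 9.15), H1975 (86.9 ± 10.4) and HCC827 (50.8 ± 2.48), where PC9 and H1975 did not differ by the test (edgeR adjusted p = 0.6). TYRO3 ordered as PC9 (65.8 ± 7.33 CPM), HCC2935 (55.2 ± 4.62), H1975 (39.9 ± 6.86) and HCC827 (17.5 ± 1.22), where PC9 and HCC2935 did not differ by the test (edgeR adjusted p = 0.12). GAS6 lay within a narrow range of 33.6 ± 4.30 to 46.8 ± 8.33 CPM, and none of its 6 pairs of lines passed. Of the 48 tests of a member between 2 lines, HGF included, 32 passed, a share near the 63.1% of all gene-by-pair tests that did. Per transcript length, in TPM, the order of the lines was the same for MET, AXL, MERTK and EPHA2, while MST1R, TYRO3 and GAS6 each had 1 pair of neighbours exchanged.

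**Figure D1:**
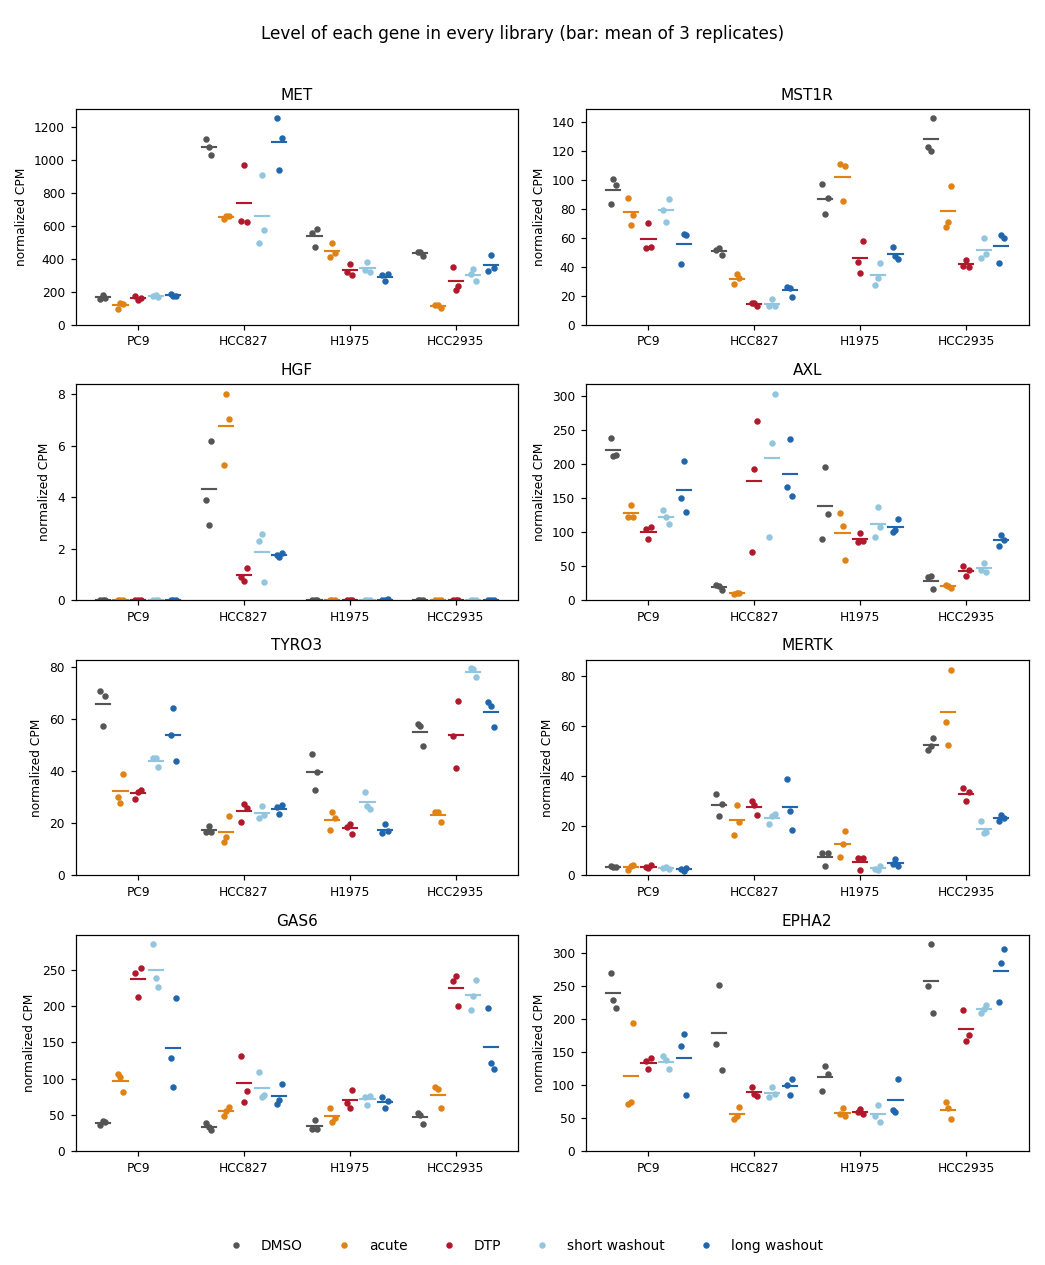
Normalized CPM of the 8 genes (linear axes from 0) by line, with 1 point per library, coloured by arm, and a bar at the mean of 3 replicates. HCC827 held the most MET and was the one line with HGF, AXL climbed from 19.1 to 175 CPM between DMSO and DTP in HCC827 while it went from 221 to 100 CPM in PC9, GAS6 climbed in every line and EPHA2 dropped in every line under acute drug.

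The question of the time course is which bypass receptors and ligands change when EGFR is first blocked, which are different in cells that outlast 21 days of drug, and which return when the drug is gone. HGF passed the filter on low counts in HCC827 alone and the other 7 members passed it in all lines, which gave 29 member-by-line tests for each comparison, and a member was called where the edgeR adjusted p was under 0.05. The 15 libraries of a line were fitted together, and calls that end or appear when the 6 libraries compared are fitted alone, with or without replicate numbers as a block, or when all 60 libraries share one fit, are given with the adjusted p of that fit. After 24 h of osimertinib 17 of the 29 were called, 4 higher (all of them GAS6) and 13 lower. By line these were 5 of 7 in PC9, where 66.2% of all genes tested were called, 4 of 8 in HCC827 (39% of all genes), 3 of 7 in H1975 (51.6%) and 5 of 7 in HCC2935 (47.1%). Over all gene-by-line tests 26.5% were called higher and 24.5% lower. The members were chosen with earlier results of these data known, and the same genes recur in the 4 lines. These counts therefore describe the members and are not a test of the set. In DTPs against DMSO 23 of the 29 were called, 7 higher and 16 lower, beside 27.9% higher and 26.4% lower over all genes. These were 5 of 7 in PC9 (69.2% of all genes), 7 of 8 in HCC827 (43.4%), 5 of 7 in H1975 (51.7%) and 6 of 7 in HCC2935 (52.8%). Both comparisons share the DMSO libraries and are not independent. The median log2 fold change of the members was -0.50 after 24 h and -0.64 in DTPs, while the median of all genes lay between 0.02 and 0.10 and between 0.02 and 0.06.

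**Figure D2:**
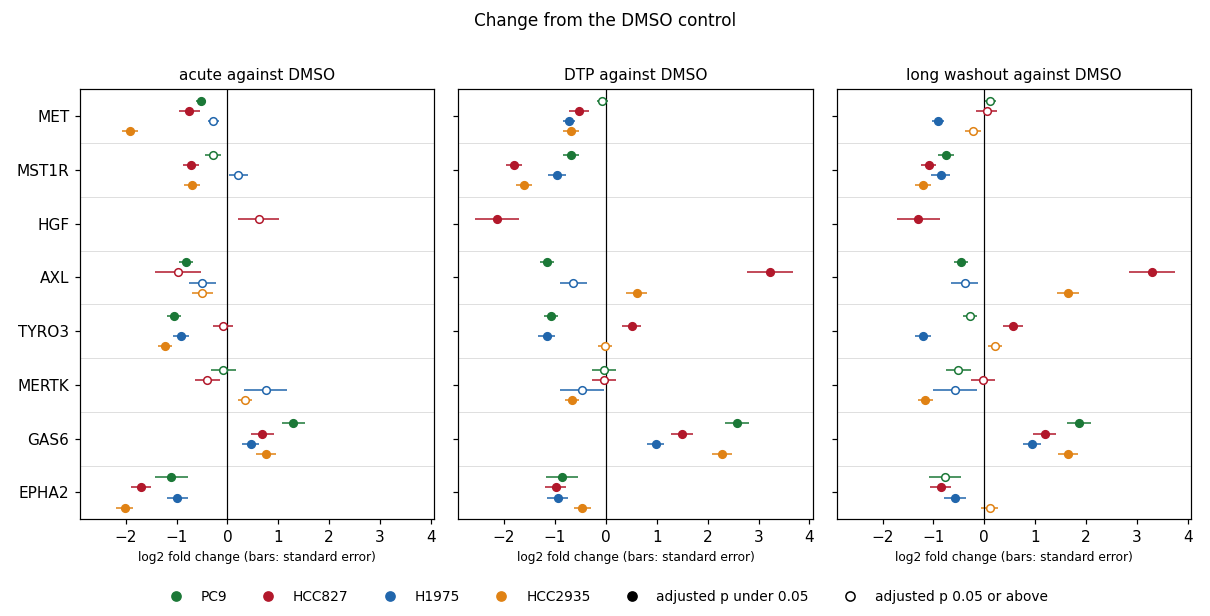
Log2 fold change from DMSO (x axis) of each gene (rows) in PC9, HCC827, H1975 and HCC2935, for acute drug, DTPs and long washout. Points are edgeR estimates, bars 1 standard error, filled points passed an adjusted p of 0.05, and a gene absent from a line was not tested there. GAS6 lies right of 0 and EPHA2 left of 0 in every line after 24 h and in DTPs, and AXL in DTPs spreads from -1.16 in PC9 to 3.22 in HCC827.

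MET, on chr7:116672196-116798377 (GRCh38, plus strand), fell at 24 h in 3 of the 4 lines. In HCC2935 its 3 acute libraries were at 121, 119 and 98.9 CPM against 440, 442 and 415 CPM under DMSO, 3.78-fold lower (log2 fold change -1.92, SE 0.16, edgeR adjusted p = 2.05e-07). HCC827 went to 642, 657 and 658 CPM (-0.75, SE 0.21, edgeR adjusted p = 0.00968) and PC9 to 93.4, 129 and 128 CPM (-0.52, SE 0.11, edgeR adjusted p = 0.000566). None of the acute libraries of these lines overlapped the DMSO libraries. In H1975 the values were 410, 496 and 434 CPM, overlapping DMSO, and the change of -0.27 (SE 0.11) did not pass (edgeR adjusted p = 0.0582). It passed without DMSO replicate 2 (0.019), acute replicate 2 (0.029) or DTP replicate 2 (0.044), with RLE size factors (0.041), without a filter on low counts (0.017), with DESeq2 (0.029) and in TPM (0.034). The size of the acute change differed between the lines (edgeR test of the line-by-arm interaction, adjusted p = 5.4e-07, where 41.4% of all genes passed).

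Persisters showed a different order. MET was again higher in DTPs than after 24 h in HCC2935, at 349, 213 and 235 CPM (log2 fold change against acute 1.23, SE 0.16, edgeR adjusted p = 1.33e-05), and in PC9, at 172, 147 and 159 CPM (0.45, SE 0.11, edgeR adjusted p = 0.00479), where it no longer differed from DMSO by the test (-0.07, SE 0.11, edgeR adjusted p = 0.575). H1975 moved further down, to 321, 367 and 301 CPM, both against acute (-0.46, SE 0.11, edgeR adjusted p = 0.00669) and against DMSO (-0.73, SE 0.12, edgeR adjusted p = 0.000115). HCC2935 DTPs stayed below their DMSO libraries by 0.69 on the log2 scale (SE 0.16, edgeR adjusted p = 0.00146). HCC827 DTPs, at 626, 966 and 624 CPM, were called lower than DMSO by a small margin (-0.53, SE 0.20, edgeR adjusted p = 0.0499). That call ended in 10 of the 15 fits that left out 1 library of the line (0.053 to 0.16), with library-size scaling alone (0.073) and with a minimum of 10 counts in every library (0.053). The persister effect on MET differed between lines by the interaction test (edgeR adjusted p = 0.046, where 63.9% of all genes passed), a call that was lost without the replicates numbered 1 (0.099) or 3 (0.42).

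After the long washout MET differed from DMSO by the test in 1 line. HCC827 reached 1250, 939 and 1129 CPM, PC9 187, 176 and 174 CPM and HCC2935 324, 419 and 346 CPM, and none of these differed from DMSO by the test. In PC9 the log2 fold change was 0.11 (edgeR adjusted p = 0.40) and in TPM 0.28, which passed (limma adjusted p = 0.049). H1975, at 303, 266 and 306 CPM, remained below DMSO (log2 fold change -0.91, SE 0.12, edgeR adjusted p = 1.79e-05). Against DTPs the long washout change was 0.58 in HCC827 (interval of 2 SE, 0.17 to 0.99) and 0.46 in HCC2935 (SE 0.16, edgeR adjusted p = 0.0635), neither past the test. The HCC2935 value passed without long washout replicate 1 (0.038) or DTP replicate 1 (0.0064) and with DESeq2 (0.031).

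MST1R, on chr3:49887002-49903873 (minus strand), was lower in DTPs than under DMSO in all 4 lines. HCC827 fell from 51.5, 52.9 and 48.1 CPM to 15.3, 14.9 and 13.0 CPM, 3.50-fold (log2 fold change -1.81, SE 0.16, edgeR adjusted p = 9.87e-07), and HCC2935 from 123, 120 and 143 CPM to 40.5, 45.0 and 40.1 CPM (-1.61, SE 0.16, edgeR adjusted p = 7.51e-07). H1975 fell by 0.96 (SE 0.18, edgeR adjusted p = 0.000543) and PC9 by 0.68 (SE 0.16, edgeR adjusted p = 0.00137) on the log2 scale. The DTP libraries lay below all DMSO libraries in each line. At 24 h the receptor had fallen in HCC827 (-0.72, SE 0.15, edgeR adjusted p = 0.00184) and HCC2935 (-0.69, SE 0.16, edgeR adjusted p = 0.00191), whereas H1975 (0.21, SE 0.18, edgeR adjusted p = 0.339) and PC9 (-0.29, SE 0.16, edgeR adjusted p = 0.114) did not pass, the latter passing with its 6 libraries alone (0.03). Both effects differed between lines by the interaction test (edgeR adjusted p = 0.0042 for acute drug, 0.055 without the replicates numbered 1, and 0.00018 for DTPs). The long washout left MST1R below DMSO in all 4 lines, by 0.75 in PC9, 1.09 in HCC827, 0.86 in H1975 and 1.21 in HCC2935 on the log2 scale (edgeR adjusted p = 0.00162, 7.21e-05, 0.00118 and 1.89e-05). Its gene overlaps 2 antisense genes, and whether the counting used strand is not given in the sources used here, so reads of both strands may be mixed.

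HGF, on chr7:81699010-81770047 (minus strand), was detected in HCC827 and in no other line. The DMSO libraries of HCC827 held 75, 61 and 137 counts, or 3.88, 2.92 and 6.18 CPM, with a mean of 4.32 CPM, at least 30.9-fold above the highest value that 3 counts take in a DMSO library of the other lines (0.14 CPM). Of the 45 libraries of PC9, H1975 and HCC2935, 44 were at 0 and the highest held 2 counts. In HCC827 DTPs the counts were 18, 15 and 27 (0.915, 0.732 and 1.25 CPM), below every DMSO and acute library (against DMSO, log2 fold change -2.14, SE 0.44, edgeR adjusted p = 0.00122). After 24 h HGF stood at 5.25, 7.998 and 7.06 CPM, which overlapped DMSO (0.61, SE 0.40, edgeR adjusted p = 0.251). Long washout gave 1.74, 1.67 and 1.83 CPM, still called below DMSO (-1.30, SE 0.42, edgeR adjusted p = 0.0223). The call was lost without DMSO replicate 3 (0.10), long washout replicate 1 (0.060) or long washout replicate 2 (0.064), in TPM (0.054) and in the fit of all 60 libraries (0.054). The line with the most MET was thus also the one in which its ligand was read, at 2.44 ± 0.894 TPM under DMSO against 236 ± 13.6 TPM for MET.

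MST1, which encodes the ligand of MST1R, rose while its receptor did not. It went from 4.62 ± 0.958 to 21.1 ± 3.51 CPM in PC9, from 2.46 ± 0.175 to 12.1 ± 2.69 in HCC827, from 4.50 ± 1.20 to 22.7 ± 1.12 in H1975 and from 3.81 ± 0.813 to 13.7 ± 0.862 in HCC2935 after 24 h (mean ± SD, n = 3). The log2 fold changes of 1.87 to 2.32 passed in all lines (edgeR adjusted p = 3.82e-06 to 0.000142), and those in DTPs were 0.86 to 1.76 (edgeR adjusted p = 2.94e-05 to 0.012). Of the other genes that activate HGF and macrophage-stimulating protein or inhibit that step, PLAU (urokinase) was called lower in DTPs in all 4 lines, from -0.58 in PC9 to -2.23 in HCC2935, and ST14 (matriptase) was lower in HCC827 (-1.55) and H1975 (-3.92) and higher in HCC2935 (0.28). MST1 has close copies elsewhere in the genome, with which its reads may be shared, so its values are uncertain. The whole list of 8 genes gave 11 higher and 11 lower calls of 30 tests in DTPs against DMSO, with a median log2 fold change of -0.04, close to that of all genes. All gene-by-line tests gave 27.9% higher and 26.4% lower.

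As shares of the MET family, per transcript length, MET made up 88.3 ± 0.392% of the summed MET and MST1R TPM in HCC827 under DMSO, 68.7 ± 1.62% in H1975, 54.6 ± 3.2% in HCC2935 and 38.6 ± 0.921% in PC9. In HCC2935 the share of MET went to 34.4 ± 6.53% after 24 h and 68.7 ± 6.39% in DTPs, so that MST1R was the larger part under acute drug and MET in persisters. PC9 DTPs were at 49.2 ± 5.78% and its long washout libraries at 53.8 ± 6.42%.

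AXL, on chr19:41219223-41261766 (plus strand), was the member whose change in DTPs was most unlike between lines. HCC827 held 21.9, 20.6 and 14.8 CPM under DMSO, 8.82, 9.71 and 11.1 CPM after 24 h, and 70.9, 192 and 263 CPM in DTPs. The DTP libraries lay above every earlier library but were themselves spread, with an SD of 97.1 CPM around a mean of 175. The rise over DMSO was 9.32-fold (log2 fold change 3.22, SE 0.45, edgeR adjusted p = 6.54e-05) and over acute drug 18.3-fold (4.2, SE 0.48, edgeR adjusted p = 3.46e-05), and leaving out any 1 library kept the first between 2.77 and 3.60. HCC2935 also rose, from 34.2, 34.7 and 16.8 CPM to 49.5, 35.4 and 44.7 CPM (0.61, SE 0.21, edgeR adjusted p = 0.0221). That margin was lost without DMSO replicate 3 (0.077, with a log2 fold change of 0.34), DTP replicate 1 (0.087) or DTP replicate 3 (0.057), with the 6 libraries alone (0.075, and 0.057 with the block) and in the fit of all 60 (0.12).

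PC9 went the other way. Its AXL fell from 239, 212 and 213 CPM under DMSO to 122, 140 and 122 CPM after 24 h (log2 fold change -0.81, SE 0.14, edgeR adjusted p = 0.000108) and to 104, 89.1 and 108 CPM in DTPs (-1.16, SE 0.14, edgeR adjusted p = 4.38e-06), with no overlap at either time. H1975 was at 90.0, 196 and 127 CPM under DMSO and at 85.2, 98.4 and 87.3 CPM in DTPs, and its change of -0.64 (SE 0.26) did not pass (edgeR adjusted p = 0.0563). It did pass without DMSO replicate 1 (0.013), acute replicate 1 (0.045) or acute replicate 3 (0.021), without a filter on low counts (0.033), with DESeq2 (0.026) and in the 6 libraries with the block (0.031). The persister effect differed between the lines by the interaction test (edgeR adjusted p = 2.2e-10), the acute effect did not (0.77). At 24 h PC9 was the 1 line called, while HCC827 (-0.98, SE 0.45, edgeR adjusted p = 0.101), H1975 (-0.50, SE 0.26, edgeR adjusted p = 0.128) and HCC2935 (-0.49, SE 0.21, edgeR adjusted p = 0.0685) had values below DMSO that missed the threshold. Each of these passed in fits that left out 1 library, HCC827 without DTP replicate 1 (0.038) or short washout replicate 1 (0.049), H1975 without DMSO replicate 1 (0.031) or acute replicate 1 (0.049), and HCC2935 without DMSO replicate 3 (0.00086) and with DESeq2 (0.038). HCC827 also passed with its 6 libraries alone (0.0029, and 0.016 with the block) and in the fit of all 60 (0.02). Replicate numbers were taken to pair the HCC2935 DMSO and acute libraries, as a hint from the data and not from the labels. In the paired fit of these 6 libraries, which was added after seeing the data, the HCC2935 change passed (-0.48, edgeR adjusted p = 0.033).

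The 250 bases before the start of AXL in RefSeq (GRCh38.p14, chr19:41218973-41219222, plus strand) are shown because this gene had the largest rise among the 8. They hold none of 6 searched motifs in either orientation, namely AP-1 (TGANTCA), CRE (TGACGTCA), E-box (CACGTG), TEAD (CATTCC), ETS (CCGGAAG) and FOX (TGTTTAC). Capitals in these printed sequences mark a match, and this one has none.
AXL: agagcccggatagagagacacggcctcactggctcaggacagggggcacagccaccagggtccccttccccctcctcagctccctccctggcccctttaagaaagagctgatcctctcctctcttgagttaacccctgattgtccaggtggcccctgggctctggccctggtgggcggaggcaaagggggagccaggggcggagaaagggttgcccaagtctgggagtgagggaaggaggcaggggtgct

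Epithelial and fibroblast markers also changed in HCC827. In its DTPs EPCAM fell from 451 to 124 CPM (log2 fold change -1.85, SE 0.27, edgeR adjusted p = 7.47e-05), the cell adhesion gene CDH1 fell from 1053 to 296 CPM (-1.82, SE 0.40, edgeR adjusted p = 0.00206), and 5 of 7 fibroblast markers were called higher, their sum going from 14.8 to 25.6 CPM under DMSO to 66.4 to 145 CPM in DTPs. PDGFRB, a fibroblast receptor, was at 2.91 ± 2.99 CPM in these DTPs and under the limit of detection in DMSO. COL1A1, COL3A1, PDGFRB and LUM averaged at least 1 CPM over the line, COL1A2, PDGFRA and DCN did not, and none was at 0 in every library. In H1975 DTPs, where AXL was not called, CDH1 fell from 254 to 7.37 CPM (-5.14, SE 0.47, edgeR adjusted p = 1.36e-06) and EPCAM went from 191 to 20.2 CPM. Some markers ran the other way. CDH1 was higher in PC9 DTPs (log2 fold change 1.10), where AXL fell, and near DMSO in HCC2935 DTPs (-0.065). COL1A2 had a lower value in HCC827 DTPs (-0.94), which was not called. Of all gene-by-line tests in DTPs against DMSO, 27.9% were called higher and 26.4% lower. Over the 4 lines 16 of 24 tests of epithelial markers were called lower and 2 higher in DTPs, and 15 of 22 of fibroblast markers were called higher and none lower, while 18 tests of leukocyte and endothelial markers split into 4 higher and 3 lower. The part of these markers in the AXL values was not tested.

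TYRO3, on chr15:41559212-41583589 (plus strand), fell at 24 h in 3 lines and not in HCC827. PC9 went from 70.8, 57.3 and 69.1 CPM to 30.3, 27.7 and 39.0 CPM (log2 fold change -1.05, SE 0.14, edgeR adjusted p = 1.59e-05), H1975 from 46.8, 33.0 and 40.0 to 17.7, 24.4 and 22.1 CPM (-0.92, SE 0.16, edgeR adjusted p = 0.000238) and HCC2935 from 58.3, 57.4 and 49.8 to 24.5, 24.3 and 20.7 CPM (-1.23, SE 0.14, edgeR adjusted p = 4.34e-06). HCC827 was at 16.9, 18.9 and 16.7 CPM before and 12.8, 14.7 and 22.9 CPM after (-0.09, SE 0.19, edgeR adjusted p = 0.753), and the effect differed between the lines (interaction, edgeR adjusted p = 0.00036). In DTPs these lines parted. PC9 and H1975 stayed low, at 31.6 ± 1.89 and 18.2 ± 1.94 CPM (against DMSO -1.08 and -1.16, edgeR adjusted p = 1.23e-05 and 3.6e-05), whereas HCC2935 was back at 53.8, 41.4 and 67.0 CPM, 2.32-fold over acute drug (1.22, SE 0.14, edgeR adjusted p = 5.06e-06) and not past the test against DMSO (-0.02, SE 0.14, edgeR adjusted p = 0.93). HCC827 rose to 20.5, 27.5 and 25.9 CPM (0.51, SE 0.19, edgeR adjusted p = 0.039). This rise lost its call in 6 of the 15 fits that left out 1 library (0.051 to 0.13), without a filter on low counts (0.062) and in the 6 libraries with the block (0.063). The persister effects differed between the lines as well (interaction, edgeR adjusted p = 2.9e-08).

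MERTK, on chr2:111898607-112029561 (plus strand), changed in HCC2935, the line with most of it. Its libraries were at 50.4, 51.9 and 55.2 CPM under DMSO, 61.7, 52.4 and 82.7 CPM after 24 h and 35.2, 29.9 and 33.4 CPM in DTPs, which was lower than DMSO (log2 fold change -0.67, SE 0.15, edgeR adjusted p = 0.0012) and than acute drug (-1.01, SE 0.15, edgeR adjusted p = 4.39e-05). The acute value of 0.34 (SE 0.14, edgeR adjusted p = 0.0617) missed the threshold and passed without acute replicate 2 (0.013) and with at least 10 counts in every library (0.043). In PC9, HCC827 and H1975 no change from DMSO passed, and the DTP values were -0.03 (SE 0.24), -0.04 (SE 0.24) and -0.47 (SE 0.43). The H1975 acute value of 0.75 passed in the fit of all 60 libraries (0.035) and not by line (0.15). H1975 DTPs, at 7.22, 2.34 and 6.99 CPM, were called lower than acute drug, at 7.53, 12.5 and 17.8 CPM (-1.22, SE 0.43, edgeR adjusted p = 0.037). That difference was lost without acute replicate 2 (0.075), acute replicate 3 (0.17) or DTP replicate 2 (0.12) and with the 6 libraries alone (0.07, and 0.064 with the block). Neither the acute nor the persister effect was shown to differ between the lines (edgeR adjusted p = 0.11 and 0.42).

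These changes altered which TAM receptor dominated. Per transcript length, HCC827 held 26.3 ± 2.55 TPM of the 3 receptors under DMSO, of which MERTK was 48.3 ± 5.20% and AXL 23.8 ± 3.60%. In its DTPs the sum was 81.8 ± 30.0 TPM, AXL was 68.0 ± 14.8% and MERTK 18 ± 10.3%. HCC2935 moved from 16.6 ± 4.99% AXL under DMSO to 27.7 ± 2.18% in DTPs and 44.1 ± 2.47% after long washout, with MERTK going from 42.3 ± 5.32% to 28.8 ± 2.83% and 15.8 ± 0.653%. TYRO3 was at 41.2 ± 0.569% under DMSO, 43.5 ± 4.34% in DTPs, 57.9 ± 1.56% in the short washout and 40.1 ± 3.05% after the long washout, so that it was the largest part in the middle 2 of these arms. After 24 h of drug MERTK was the largest part in HCC2935, at 63.8 ± 7.34%, with TYRO3 at 21.5 ± 4.22%. PC9 and H1975 were AXL-dominated in every arm, between 67.0 and 73.8% in PC9 and between 67.4 and 78.5% in H1975, and what varied there was the sum, from 91.6 ± 6.87 TPM to 50.3 ± 3.76 TPM in PC9 DTPs and from 70.4 ± 15.8 to 41.3 ± 2.96 TPM in H1975 DTPs.

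**Figure D3:**
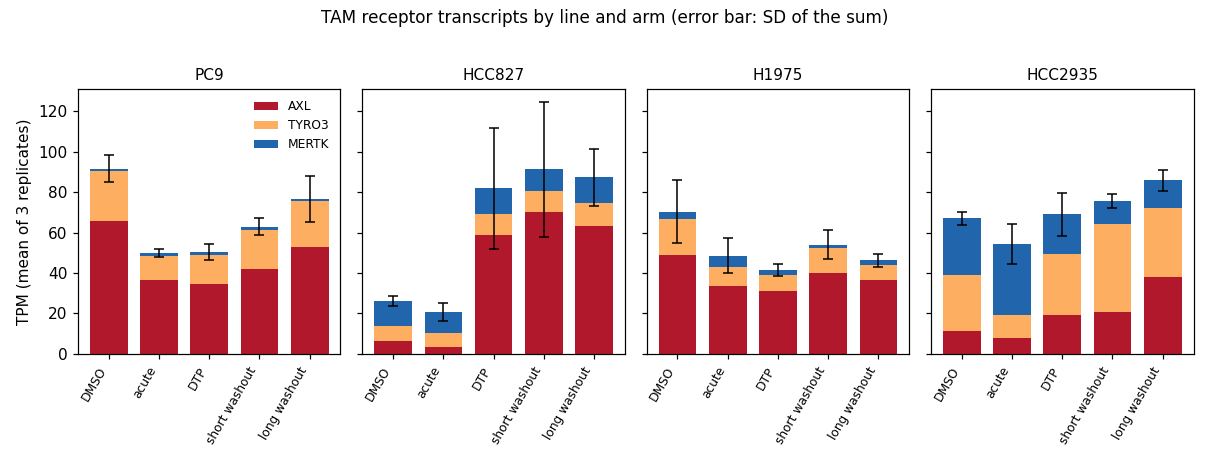
Stacked TPM (y axis, from 0) of AXL, TYRO3 and MERTK, mean of 3 replicates, in the 5 arms of each line, with the SD of the sum as error bar. AXL takes over in HCC827 from DTPs on (68.0% of the sum against 23.8% under DMSO) and grows within HCC2935, while in PC9 and H1975 it is the largest part in every arm.

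GAS6, on chr13:113820549-113864076 (minus strand), rose in every line at both times, and further in DTPs than at 24 h. PC9 went from 35.5, 41.0 and 40.4 CPM under DMSO to 107, 102 and 82.1 CPM after 24 h and 246, 213 and 253 CPM in DTPs. HCC2935 went from 52.9, 50.3 and 37.3 to 88.8, 86.0 and 59.2 and then 236, 242 and 200 CPM. HCC827 went from 38.1, 33.0 and 29.6 to 48.7, 55.4 and 61.2 and then 132, 67.0 and 83.2 CPM. H1975 went from 30.7, 42.8 and 30.7 to 59.6, 39.4 and 45.7 and then 66.3, 59.5 and 84.1 CPM. In DTPs no library overlapped DMSO in any line, and the rise was 5.99-fold in PC9, 4.87-fold in HCC2935, 2.82-fold in HCC827 and 1.97-fold in H1975 (log2 fold changes 2.58, 2.28, 1.5 and 0.98, SE 0.24, 0.20, 0.22 and 0.17, edgeR adjusted p = 5.65e-07, 2.02e-07, 0.000107 and 0.000233). The size differed between lines by the interaction test (edgeR adjusted p = 0.0001). At 24 h the rise was 1.29 in PC9 (SE 0.23, edgeR adjusted p = 0.000164), 0.76 in HCC2935 (SE 0.20, edgeR adjusted p = 0.00488), 0.68 in HCC827 (SE 0.22, edgeR adjusted p = 0.0243) and 0.46 in H1975 (SE 0.17, edgeR adjusted p = 0.0323), and these sizes were not shown to differ (interaction, edgeR adjusted p = 0.14). The HCC827 call was lost without DMSO replicate 2 or 3 or acute replicate 2 or 3 (0.057 to 0.080) and the H1975 call without DMSO replicate 1 or 3 (0.11 and 0.12) or acute replicate 1 (0.17, with a log2 fold change of 0.29), in which the acute libraries overlapped DMSO. The H1975 call was also lost without a filter on low counts (0.090), in TPM with a pseudocount of 1 (0.051), with the 6 libraries alone (0.12, and 0.19 with the block) and in the fit of all 60 (0.10).

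DTPs exceeded acute drug in GAS6 in all 4 lines, by 1.29 in PC9, 1.53 in HCC2935, 0.81 in HCC827 and 0.52 in H1975 on the log2 scale (edgeR adjusted p = 0.000592, 1.28e-05, 0.0127 and 0.0249). In HCC827 this was lost without DTP replicate 1 (0.061, with a log2 fold change of 0.50), acute replicate 1 (0.055) or acute replicate 2 (0.054) and in the 6 libraries with the block (0.067). In H1975 it was lost without acute replicate 2 (0.11), acute replicate 3 (0.079) or DTP replicate 3 (0.11), with the 6 libraries alone (0.06) and in the fit of all 60 (0.061). An antisense gene, GAS6-AS1, covers 25196 bases of GAS6 and has no row of its own in the count table, so with strand not given its reads cannot be told apart from those of GAS6. The 250 bases before the RefSeq start of GAS6 (GRCh38.p14, chr13:113864077-113864326, minus strand), printed because this was the member that rose in all lines, hold none of the 6 motifs.
GAS6: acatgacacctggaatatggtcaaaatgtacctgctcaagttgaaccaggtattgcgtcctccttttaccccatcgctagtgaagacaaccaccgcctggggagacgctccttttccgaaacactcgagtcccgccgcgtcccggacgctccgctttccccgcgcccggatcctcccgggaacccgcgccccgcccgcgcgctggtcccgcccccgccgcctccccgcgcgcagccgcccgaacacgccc

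PROS1, the gene of protein S, the other TAM ligand, was also called higher. It was called in all 4 lines at both times, from 1.15 ± 0.118 to 7.95 ± 2.46 CPM in PC9 DTPs, from 73.4 ± 10.7 to 176 ± 44.7 in HCC827, from 60.8 ± 3.94 to 270 ± 76.9 in H1975 and from 16.9 ± 5.80 to 111 ± 18 in HCC2935 (mean ± SD, n = 3). A pseudogene close in sequence makes its count uncertain. The log2 fold changes in DTPs were 2.77, 1.27, 2.12 and 2.72 (edgeR adjusted p = 1.95e-06, 0.000133, 2.32e-06 and 1.72e-06), and at 24 h they were 1.95, 1.26, 1.49 and 1.22. Per transcript length the lines differed in which of the ligands was higher. In PC9 DTPs GAS6 was at 143 ± 12.9 TPM and PROS1 at 3.28 ± 1.04, in H1975 DTPs GAS6 at 41.3 ± 6.05 and PROS1 at 109 ± 27.5.

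**Figure D4:**
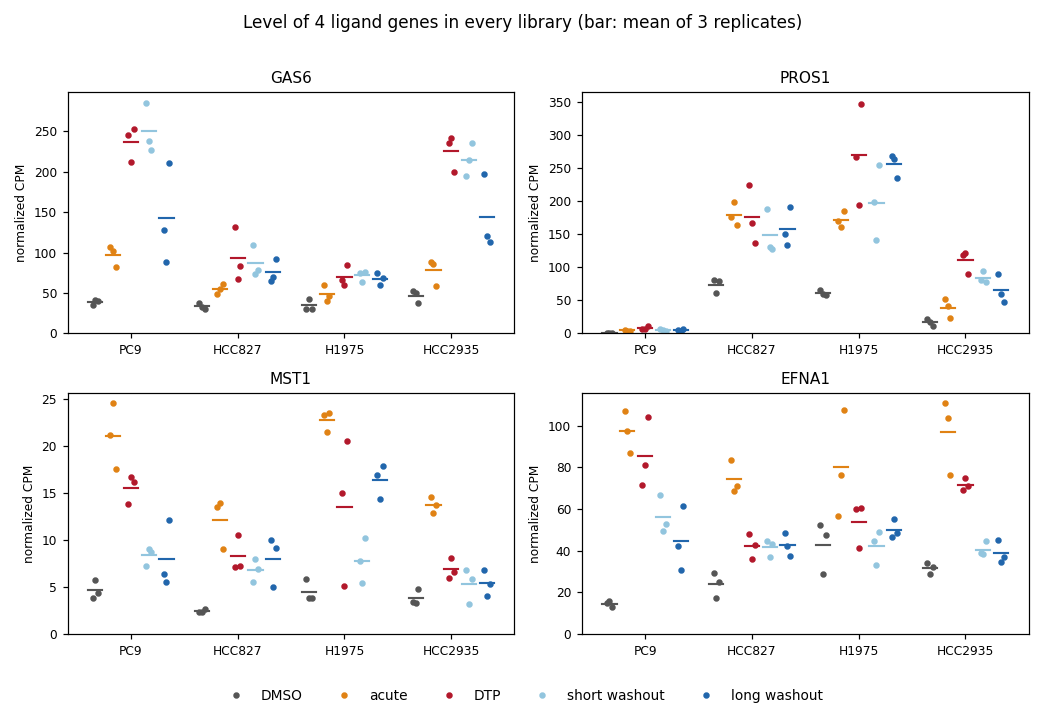
Normalized CPM (linear axes from 0) of the ligand genes GAS6, PROS1, MST1 and EFNA1 by line, 1 point per library, coloured by arm, with a bar at the mean of 3 replicates. Each ligand is higher after 24 h than under DMSO in all 4 lines, GAS6 is highest in DTPs or the short washout after them, and MST1 is highest at 24 h.

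EPHA2, on chr1:16124337-16156069 (minus strand), was the receptor that fell in all 4 lines at both times. HCC2935 dropped from 249, 313 and 209 CPM to 74.6, 64.7 and 48.1 CPM after 24 h, 4.06-fold (log2 fold change -2.02, SE 0.17, edgeR adjusted p = 2.15e-07), HCC827 from 161, 250 and 123 to 48.5, 52.6 and 67.0 CPM (-1.70, SE 0.20, edgeR adjusted p = 1.98e-05) and H1975 from 90.7, 129 and 117 to 55.2, 64.3 and 52.5 CPM (-0.98, SE 0.21, edgeR adjusted p = 0.00147). PC9 went from 270, 229 and 217 CPM to 71.1, 74.5 and 193 CPM, where acute replicate 3 stood far from the others. With it the change was -1.10 (SE 0.32, edgeR adjusted p = 0.00726), and without it -1.74 (edgeR adjusted p = 2.3e-05). In every line the acute libraries lay below all DMSO libraries. The interaction test between lines gave an edgeR adjusted p of 0.046, which was lost without the replicates numbered 1 (0.12) or 2 (0.25).

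In DTPs EPHA2 was still below DMSO but less far in some lines. HCC2935 stood at 214, 166 and 175 CPM, 2.95-fold over acute drug (1.56, SE 0.17, edgeR adjusted p = 2.41e-06) and below DMSO by 0.46 (SE 0.16, edgeR adjusted p = 0.0258). The latter was lost without DMSO replicate 2 (0.16, with a log2 fold change of -0.30), DTP replicate 2 (0.097) or DTP replicate 3 (0.075), in TPM (0.086) and in the fit of all 60 libraries (0.13). The DTP and DMSO libraries of HCC2935 overlapped. HCC827 DTPs were at 96.9, 85.8 and 83.8 CPM, above acute (0.71, SE 0.20, edgeR adjusted p = 0.0162, lost without acute replicate 1 at 0.071 or acute replicate 2 at 0.082) and below DMSO (-0.99, SE 0.20, edgeR adjusted p = 0.00113). H1975 did not move between 24 h and DTPs by the test (0.03, SE 0.21, edgeR adjusted p = 0.919), at 58.6, 64.0 and 55.5 CPM, and stayed below DMSO (-0.95, SE 0.21, edgeR adjusted p = 0.00183). PC9 DTPs, at 137, 124 and 140 CPM, were below DMSO (-0.86, SE 0.32, edgeR adjusted p = 0.0267). This was lost without DMSO replicate 1 (0.078), DTP replicate 1 (0.055) or DTP replicate 2 (0.074), with library-size scaling alone (0.057) and in TPM (0.097). Against acute drug PC9 DTPs did not pass (0.25, edgeR adjusted p = 0.586), but did without acute replicate 3 (0.88, edgeR adjusted p = 0.010). The persister effect on EPHA2 was not shown to differ between the lines (edgeR adjusted p = 0.51).

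The 250 bases before the RefSeq start of EPHA2 (GRCh38.p14, chr1:16156070-16156319, minus strand) are shown because this receptor fell in all lines. Capitals mark a TEAD motif (CATTCC), with its first base 73 bases before the start, and a cyclic AMP response element (TGACGTCA), 51 bases before it. The first is found in 11.9% and the second in 1.65% of 35116 RefSeq promoter windows of this length. Among the other receptors, that of MST1R holds an ETS motif (8.52% of all windows) and the first window of TYRO3 an AP-1 motif (6.57%), that of HGF holds a TEAD motif, as does the window of a second AXL start, and those of MET and MERTK hold none. E-box and FOX motifs, in 6.34% and 2.98% of all windows, were in none of the 8 genes. A match of letters is not evidence of binding.
EPHA2: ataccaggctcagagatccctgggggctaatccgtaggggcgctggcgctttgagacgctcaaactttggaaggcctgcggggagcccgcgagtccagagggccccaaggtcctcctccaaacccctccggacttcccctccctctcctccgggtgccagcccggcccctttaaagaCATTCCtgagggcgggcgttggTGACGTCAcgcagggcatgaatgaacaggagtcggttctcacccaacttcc

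A ligand of EPHA2 rose where the receptor fell. EFNA1 (ephrin-A1) rose at 24 h in all 4 lines, from 14.5 ± 1.5 to 97.2 ± 10.0 CPM in PC9, from 23.9 ± 6.06 to 74.4 ± 7.80 in HCC827, from 42.9 ± 12.3 to 80.3 ± 25.7 in H1975 and from 31.8 ± 2.76 to 97.1 ± 18.1 in HCC2935 (mean ± SD, n = 3). These are log2 fold changes of 2.73, 1.60, 0.89 and 1.63 (edgeR adjusted p = 1.65e-07, 9.65e-06, 0.00812 and 1.65e-07). In DTPs EFNA1 was called higher in PC9 (2.54), HCC827 (0.83) and HCC2935 (1.19), while H1975 gave 0.29 (SE 0.25, edgeR adjusted p = 0.345). Of the 19 tests of ephrin-A genes 10 were called higher and none lower in DTPs (13 and 1 at 24 h), with a median log2 fold change of 0.56 beside 0.02 to 0.06 for all genes. All gene-by-line tests gave 27.9% higher and 26.4% lower in DTPs, and 26.5% and 24.5% at 24 h. EFNA4 was called higher in PC9 (1.01), HCC827 (0.76) and H1975 (0.67). The 39 tests of the other EPH receptors gave 15 higher and 7 lower calls in DTPs with a median of 0.11, and their directions differed by line. EPHB2 was lower in PC9 (-1.56) and higher in HCC827 (0.76) and HCC2935 (0.95). EPHA1 was lower in HCC827 (-1.01) and H1975 (-2.44) and higher in HCC2935 (0.37), and EPHB4 was lower in H1975 (-0.66) and higher in HCC827 (0.36) and HCC2935 (0.29). Ephrin-B ligands gave 4 higher and 1 lower call of 7 tests.

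Set directly against acute drug, DTPs gave 19 called members of 29, 12 higher and 7 lower, where 18.8% of all gene-by-line tests were higher and 17.6% lower. By line these were 2 of 7 in PC9 (33.9% of all genes), 6 of 8 in HCC827 (29.4%), 4 of 7 in H1975 (37.2%) and 7 of 7 in HCC2935 (44.7%). In HCC2935 MET, AXL, TYRO3, GAS6 and EPHA2 were higher and MST1R and MERTK lower. MST1R was called lower in 3 lines (HCC827 -1.09, H1975 -1.18 and HCC2935 -0.91), while its PC9 value of -0.39 (SE 0.16, edgeR adjusted p = 0.0672) passed without long washout replicate 1 (0.030) or DTP replicate 2 (0.026) and with the 6 libraries alone (0.044). TYRO3 was called higher in HCC827 (0.60, SE 0.19, edgeR adjusted p = 0.0271), with overlapping libraries and in a call lost in 4 of 15 fits without 1 library (0.098 to 0.14) and with the 6 libraries alone (0.1, and 0.057 with the block). AXL in PC9 was 0.35 lower on the log2 scale without passing (SE 0.14, edgeR adjusted p = 0.0603), and passed without long washout replicate 2 (0.010) or 3 (0.021) and with the 6 libraries alone (0.017, and 0.041 with the block).

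A drug-free day changed little. In the short washout 2 of 29 member tests were called against DTPs, 1 higher and 1 lower, where 1.56% of all gene-by-line tests were higher and 0.713% lower. Both were in HCC2935, where 3.14% of all genes were called, and none was in PC9 (5.92% of all genes), HCC827 (0%) or H1975 (0.0585%). TYRO3 in HCC2935 rose from 53.8, 41.4 and 67.0 CPM to 79.7, 79.4 and 76.1 CPM (0.54, SE 0.14, edgeR adjusted p = 0.0413). The TYRO3 call was lost in 10 of 15 fits without 1 library (0.051 to 0.19), with a replicate block (0.065), with the 6 libraries alone (0.082, and 0.094 with the block) and in the fit of all 60 (0.052). MERTK there fell from 35.2, 29.9 and 33.4 CPM to 21.7, 16.9 and 17.6 CPM (-0.80, SE 0.15, edgeR adjusted p = 0.00818). The MERTK call was lost without short washout replicate 2 (0.053) and in the fit of all 60 libraries (0.14). In HCC827 edgeR called no gene, DESeq2 and limma called none either, and 291 genes had an unadjusted p under 0.05. TYRO3 missed the threshold in PC9, at 45.2, 45.1 and 41.8 CPM against 29.4, 32.2 and 33.0 CPM (0.49, SE 0.14, edgeR adjusted p = 0.0595). It passed there without long washout replicate 2 or 3 or acute replicate 2 or 3 (0.013 to 0.043), with at least 10 counts in every library (0.047) and with DESeq2 (0.018). With the 6 PC9 libraries alone TYRO3 (0.0036, and 0.018 with the block), AXL (0.28, edgeR adjusted p = 0.046) and MST1R (0.42, edgeR adjusted p = 0.036) were called higher. TYRO3 also missed the threshold in H1975, at 32.2, 26.7 and 25.6 CPM against 18.6, 19.97 and 16.1 CPM (0.65, SE 0.16, edgeR adjusted p = 0.10). This value passed without DTP replicate 2 (0.041) and with DESeq2 (0.0099). In both lines the short washout libraries lay above all DTP libraries.

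Replicate numbers were also taken to pair the H1975 DTP and short washout libraries, as a hint from the data. With that pairing the number of genes called in H1975 went from 9 to 56, no member among them, and to 1697 when the 6 libraries were fitted alone, where AXL (log2 fold change 0.31, edgeR adjusted p = 0.025), MST1R (-0.40, edgeR adjusted p = 0.024) and TYRO3 (0.64, edgeR adjusted p = 0.0029) were called. For HCC827, where numbers were also taken to pair, the fit of the 6 libraries called 2 genes and no member. For the genes whose level had changed most in DTPs the 24 h of washout left the interval of 2 SE at -0.56 to 1.08 for AXL in HCC827 and -0.36 to 0.53 for GAS6 in PC9. The short washout effects were not shown to differ between the lines for any member, and 2 genes of all those tested (0.0121%) passed that interaction test, with 1396 at an unadjusted p under 0.05 and 128 called by DESeq2.

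The long washout differed in length between the lines, so their values stand side by side and were not compared by a test. Against DTPs 7 of 29 member tests were called, 4 higher and 3 lower, where 6.78% of all tests were higher and 5.4% lower. These were 3 of 7 in PC9 after 7 days (37.2% of all genes) and 4 of 7 in HCC2935 after 10 days (11.8%), with none in HCC827 after 96 h (0%) or H1975 after 72 h (0.0065%). In HCC827 edgeR called no gene, 502 had an unadjusted p under 0.05, DESeq2 called 3 and limma none. MST1R in HCC827 is an example of what this left uncalled, at 26.1, 25.4 and 19.5 CPM against 15.3, 14.9 and 13.0 CPM without overlap (0.71, SE 0.16, edgeR adjusted p = 1.00 and unadjusted p = 0.00037).

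**Figure D5:**
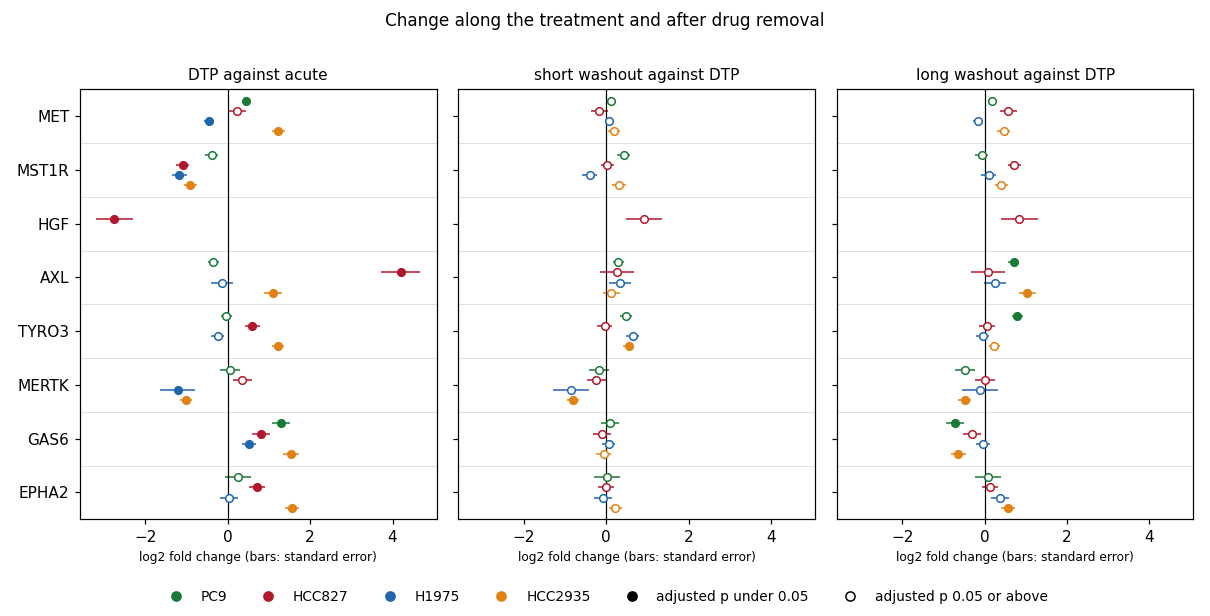
Log2 fold change (x axis) of each gene (rows) in the 4 lines for DTPs against acute drug, short washout against DTPs and long washout against DTPs. Points are edgeR estimates, bars 1 standard error, and filled points passed an adjusted p of 0.05. After the short washout TYRO3 and MERTK in HCC2935 are the filled points, and after the long washout 3 in PC9 and 4 in HCC2935.

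In PC9 the long washout raised AXL from 104, 89.1 and 108 CPM to 150, 204 and 129 CPM (log2 fold change 0.70, SE 0.14, edgeR adjusted p = 0.00209), a call lost in the fit of all 60 libraries (0.076) and in the 6 libraries with the block (0.05). TYRO3 went from 29.4, 32.2 and 33.0 to 54.0, 64.2 and 44.2 CPM (0.80, SE 0.14, edgeR adjusted p = 0.00147). GAS6 fell to 128, 88.0 and 211 CPM (-0.72, SE 0.22, edgeR adjusted p = 0.0217), with long washout replicate 3 close to the DTPs. Without it the change was -1.08 (edgeR adjusted p = 6.2e-05), and the call was lost without long washout replicate 1 or 2 or DTP replicate 1 or 3 (0.055 to 0.080), with -0.46 when long washout replicate 2 was left out, and with the 6 libraries alone (0.11). In HCC2935 AXL rose again, to 80.2, 95.5 and 87.8 CPM, 2.05-fold over its DTPs (1.04, SE 0.21, edgeR adjusted p = 0.00437, and 0.053 in the 6 libraries with the block). EPHA2 there reached 225, 284 and 306 CPM (0.57, SE 0.16, edgeR adjusted p = 0.033, lost in 4 of 15 fits without 1 library at 0.091 to 0.16), GAS6 fell to 197, 121 and 113 CPM (-0.64, SE 0.19, edgeR adjusted p = 0.0406, lost in 8 of 15 at 0.051 to 0.19) and MERTK fell to 21.7, 24.4 and 23.3 CPM (-0.49, SE 0.15, edgeR adjusted p = 0.0415, lost in 9 of 15 at 0.052 to 0.12). These 3 calls were also lost in the fit of all 60 libraries (0.16, 0.059 and 0.31) and in the 6 libraries with the block (0.13, 0.077 and 0.11), and the first 2 with the 6 libraries alone (0.056 and 0.085). MERTK was also lost in TPM with a pseudocount of 1 (0.053). MST1R and TYRO3 in HCC2935 did not pass (0.40 and 0.23, edgeR adjusted p = 0.118 and 0.294), but did without long washout replicate 1 (0.018) and without DTP replicate 3 (0.045).

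Several members still differed from DMSO after the long washout, also in HCC827 and H1975, whose proliferation genes were near the DTP level. Against DMSO 18 of 29 tests were called after the long washout, 7 higher and 11 lower, beside 23.8% higher and 22.1% lower over all gene-by-line tests. These were 3 of 7 in PC9 (44.9% of all genes), 6 of 8 in HCC827 (42%), 5 of 7 in H1975 (53.3%) and 4 of 7 in HCC2935 (43.3%). GAS6 stayed higher in all 4 lines, by 1.87 in PC9, 1.19 in HCC827, 0.94 in H1975 and 1.64 in HCC2935 on the log2 scale (edgeR adjusted p = 3.55e-05, 0.000686, 0.000304 and 7.77e-06), and MST1R stayed lower in all 4. AXL stayed 9.81-fold higher in HCC827, at 166, 237 and 153 CPM (3.29, SE 0.46, edgeR adjusted p = 6.44e-05), was 3.13-fold higher in HCC2935 (1.65, SE 0.21, edgeR adjusted p = 1.45e-05) and remained lower in PC9 (-0.46, SE 0.14, edgeR adjusted p = 0.0134, lost without DMSO replicate 1 or long washout replicate 1 or 3 at 0.051 to 0.054, with the 6 libraries alone at 0.065, with these and the block at 0.076 and in the fit of all 60 at 0.24). TYRO3 was still lower in H1975 (-1.21, SE 0.16, edgeR adjusted p = 2.31e-05) and higher in HCC827 (0.56, SE 0.19, edgeR adjusted p = 0.0254, lost in 4 of 15 fits without 1 library at 0.064 to 0.078). MERTK was lower in HCC2935 (-1.16, SE 0.15, edgeR adjusted p = 1.46e-05). EPHA2 was lower in HCC827 (-0.86, SE 0.20, edgeR adjusted p = 0.00322, -0.54 without DMSO replicate 2) and in H1975 (-0.58, SE 0.21, edgeR adjusted p = 0.0315, lost in 4 of 15 fits without 1 library at 0.076 to 0.14, with the 6 libraries alone at 0.061 and in the fit of all 60 at 0.063, and -0.92 without long washout replicate 3), and in HCC2935 it did not differ from DMSO by the test (0.11, SE 0.16, edgeR adjusted p = 0.63). In PC9 the value of -0.77 for EPHA2 missed the threshold (edgeR adjusted p = 0.0619) and passed without long washout replicate 2 or any 1 of the acute replicates (0.0063 to 0.048), with the 6 libraries alone (0.047, and 0.035 with the block) and in the fit of all 60 (0.016). TYRO3 in PC9, at -0.28 (edgeR adjusted p = 0.115), passed without long washout replicate 2 (0.023). The part of growth state in the member values was not tested.

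Genes that degrade, restrain or shed receptors, or pass on their signals, were also followed. CBLB, an E3 ligase that marks receptors for degradation, was called higher in DTPs in all 4 lines, by 1.99 in PC9, 1.25 in HCC827, 1.27 in H1975 and 0.48 in HCC2935. LRIG1, a membrane protein that restrains EGFR and MET, was higher in PC9 (0.51), HCC827 (1.80) and H1975 (2.18) and lower in HCC2935 (-0.92). ADAM10, a protease that sheds receptor ectodomains, was higher in PC9 (0.25), H1975 (0.35) and HCC2935 (0.49) and lower in HCC827 (-0.28). The list of 6 gave 13 higher and 6 lower calls of 24 tests in DTPs with a median of 0.27. Of all gene-by-line tests in DTPs against DMSO, 27.9% were called higher and 26.4% lower. Among adaptors and phosphatases, 32 tests gave 6 higher and 8 lower, and GAB1, an adaptor through which MET signals, was higher in PC9 (2.14), H1975 (0.47) and HCC2935 (0.93), with a value of -0.47 in HCC827 that missed the threshold (edgeR adjusted p = 0.114).

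Genes whose 20 group means, centred within each line, ran closest to those of a receptor were MAFF (Pearson r = 0.858), THAP10 (0.845) and C1orf74 (0.837) for MET, RNF182 (0.965), CNTNAP3 (0.955) and CLGN (0.944) for AXL, and PUS7L (0.935), ANAPC10 (0.922) and HIVEP3 (0.916) for EPHA2. These are descriptions over 20 group means of 13804 genes, picked as the highest of all, and the means share libraries and lines. In HCC827 RNF182 went from 0.128 ± 0.138 CPM under DMSO to 6.80 ± 4.69 in DTPs, and in the other lines it did not exceed 1.12 CPM.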

How the data were processed

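Bulk mRNA of 60 libraries was sequenced on an Illumina instrument. The deposited tables, made by the authors, hold estimated counts per gene, which need not be whole, and log2 TPM per gene, whose lowest value is that of a pseudocount of 0.01. Per the labels' processing notes HISAT2 2.1.0, Salmon 0.8.2 and hg38 were used. Which tool made which table, the annotation and the strand setting are not given in the sources used here.

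Counts were rounded, scaled by TMM and filtered for low counts in edgeR 4.0.16, with the 15 libraries of a line in one quasi-likelihood fit over 5 arms, Benjamini-Hochberg adjustment over all genes of the line and a threshold of 0.05. A fit of all 60 libraries gave the differences between lines under DMSO and the tests of whether an arm's effect differed between lines. CPM are TMM-scaled, SD is over 3 replicates, SE comes from the quasi-likelihood F statistic and each TPM is 2 to the power of the deposited value less its pseudocount. Limma 3.58.1 on log2 TPM (pseudocount 0.01 as deposited, or 1) and DESeq2 1.42.0 on counts were alternatives, beside other scalings, filters, thresholds, sample sets and single libraries left out. R 4.3.3, Python 3.11.15, pandas 2.3.3, numpy 2.4.6 and matplotlib 3.10.9 were used, and the fits were tested on simulated data.

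Total counts of 17700000 to 49100000 set the limit of 3 counts, which covers counting error only. The labels call the replicates biological, but name no separate cultures or dates, so p-values measure the spread between these samples. Over 60 pairs of replicates the variance was at least 8.66 times that of counting noise, so none was the same library sequenced again. Libraries prepared from the same RNA or culture cannot be recognized this way. Replicate numbers were taken to pair the samples where the deviations of every same-numbered pair correlated above 0.1, which held in 3 of 24 comparisons within lines, as a hint from the data. These were DMSO and acute in HCC2935, and DTP and short washout in HCC827 and H1975.

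The members and the gene lists (epithelial, fibroblast, leukocyte and endothelial markers, ligand activation, ephrins and EPH receptors, adaptors, receptor degradation, ERK outputs, proliferation) were chosen with earlier results of these data known. Named were the 8 members, PROS1, MST1 and EFNA1, up to 3 genes of each list with the largest mean change in DTPs among those called in at least 3 lines, and the 3 genes closest in pattern to MET, AXL and EPHA2. Promoter windows are the 250 bases before each RefSeq gene start. The ends nearest the gene of the printed AXL, GAS6 and EPHA2 windows also lie within an annotated GENCODE transcript. Distances are therefore from the RefSeq start and would differ for another start.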

Additional observations from a re-analysis of the deposited data

Results flagged for a closer look

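For 6 of the 8 genes the size of a change from DMSO differed between the 4 lines by a test of the difference itself (edgeR line-by-arm interaction over all 60 libraries). At 24 h 4 of the 8 passed, where 41.4% of all genes did, and in DTPs 5 of the 8, where 63.9% of all genes did. These counts do not set the members apart from all genes. The log2 fold changes given here come from that fit and can differ slightly from those of the fits by line.

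At 24 h the range between the lines was 1.67 for MET, from -1.95 in HCC2935 to -0.28 in H1975 (edgeR adjusted p = 5.4e-07). It was 0.93 for MST1R, from -0.73 in HCC2935 to 0.21 in H1975 (edgeR adjusted p = 0.0042), a call lost without the replicates numbered 1. For TYRO3 it was 1.19, from -1.27 in HCC2935 to -0.07 in HCC827 (edgeR adjusted p = 0.00036). For EPHA2 it was 1.06, from -2.06 in HCC2935 to -0.99 in H1975 (edgeR adjusted p = 0.046), a call lost without the replicates numbered 1 or 2. HCC2935 was the line with the lowest value for each of these 4 receptors.

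In DTPs AXL had the widest range, 4.37, from -1.18 in PC9 to 3.19 in HCC827 (edgeR adjusted p = 2.2e-10). TYRO3 spanned 1.63, from -1.15 in H1975 to 0.48 in HCC827 (edgeR adjusted p = 2.9e-08), and AXL and TYRO3 thus both had their highest value in HCC827. GAS6 spanned 1.58, from 0.99 in H1975 to 2.56 in PC9 (edgeR adjusted p = 0.0001). MST1R spanned 1.14, from -1.84 in HCC827 to -0.70 in PC9 (edgeR adjusted p = 0.00018). MET spanned 0.63, from -0.72 in H1975 to -0.09 in PC9 (edgeR adjusted p = 0.046), a call lost without the replicates numbered 1 or 3.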

How the results depend on the processing

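Of the calls among 174 member tests, 85 were followed through the other fits, and 62 of these were called in every fit that gave a value. On leaving out 1 library or replicate number 21 were lost, and 23 were lost in at least 1 other setting. The call of MET in HCC827 DTPs against DMSO (edgeR adjusted p = 0.0499) is not among the 85. It was lost in 10 of the 15 fits that left out 1 library. No called value changed direction. The 24 h and DTP comparisons with DMSO kept their counts within 1.5 times, and the washout comparisons with DTPs did not. For the long washout against DMSO, 18 called members became between 16 and 20 on leaving out 1 library. For the short washout, 2 called members became 1 at an adjusted p under 0.01, 1 with the replicate block, 4 with DESeq2, 4 with only the 6 libraries compared, 5 with those 6 and the block, and 0 in the fit of all 60 libraries, while 1358 genes became 254 at the stricter threshold, 3321 with DESeq2, 3724 with the 6 libraries and 3966 with those and the block. For the long washout against DTPs, 7 members became 3 at the stricter threshold, 4 with the 6 libraries, 2 with those and the block and 3 with all 60, and 7291 genes became 3567, 3243 and 2200 in the first 3 of these. For DTPs against acute drug 21764 genes became 13613 at the stricter threshold. The 2 genes whose short washout effect differed between lines became 17 with at least 10 counts in every library, 4 with the block, 9 and 89 with limma (pseudocounts 0.01 and 1) and 128 with DESeq2. In TPM the order of the lines under DMSO was the same for 4 of the 7 members. The interaction call of EPHA2 at 24 h was also lost with library-size scaling alone, with the block and with limma. The fits of 6 libraries with the block were added after seeing the data. The causes of these differences were not tested.

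Leaving out 1 library gave 0 to 3 members and 583 to 3114 genes for the short washout and 4 to 8 members for the long washout. Leaving out 1 replicate number gave 2 to 4 members and 3959 to 4908 genes (of 6864) for differences in the acute effect, and 0 to 5 genes for the short washout. In 21 of the 24 comparisons the samples share only a number: the block moved calls by up to 1.5 times or, in H1975 long washout against DTPs, from 1 to 6, and the HCC2935 long washout against DTPs went from 1758 to 38 with the block and only its 6 libraries, 2 choices together. Scaling moved the split of calls: with TPM the share of calls that were higher went from 47.5% to 84.4% (70.2% by library size alone) in PC9 and from 51.0% to 70.4% in HCC2935 for DTPs against acute drug, from 51.6% to 66.0% and from 51.1% to 63.2% for DTPs against DMSO, and from 52.2% to 71.1% (67.3% by library size) and from 52.0% to 62.8% for the long washout against DMSO. For PC9 long washout against DTPs it went from 54.9% to 43.3%. The median of all genes in PC9 DTPs against DMSO moved from 0.06 to 0.20 by library size and 0.31 in TPM, so that changes of that size in PC9 are relative to the scaling. Counts of 0 to 2 for HGF in 3 lines limit what can be said of that gene there.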

Other observations

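Genes on the route from these receptors also changed at 24 h. CRKL, an adaptor that links receptors to RAS-family signalling, fell by 0.60 in PC9, 0.54 in HCC827, 0.42 in H1975 and 0.47 in HCC2935 on the log2 scale (edgeR adjusted p = 4.19e-06, 0.000549, 0.00627 and 0.000227). Its list of 8 adaptors and phosphatases gave 15 lower and 6 higher calls of 32 tests at that time, with a median of -0.25. GAB1 was called higher at 24 h in PC9 (1.73), H1975 (0.70) and HCC2935 (0.59). The list of genes that activate HGF and macrophage-stimulating protein or inhibit that step gave 17 higher and 2 lower calls of 30, with a median of 0.50, beside 0.02 to 0.10 for all genes. Of all gene-by-line tests at 24 h, 26.5% were called higher and 24.5% lower.

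The ERK outputs stayed low in DTPs, with 27 of 32 tests called lower and 1 higher, beside 26.4% lower and 27.9% higher over all genes. DUSP6, an ERK phosphatase and a transcriptional output of the pathway, was at 20.02 CPM under DMSO, 1.92 CPM after 24 h and 15.6 CPM in DTPs of HCC827 (DTPs against DMSO -0.34, edgeR adjusted p = 0.618). In DTPs against DMSO it was called lower in PC9 (-4.80), H1975 (-2.90) and HCC2935 (-3.70). The effect in DTPs differed between the lines by the interaction test (edgeR adjusted p = 1.5e-05). Other ERK outputs in HCC827 DTPs were below DMSO, with log2 fold changes of -1.41 for ETV4 and -0.97 for SPRY4. HCC827 is also the line whose DTPs had the largest value for AXL, and a link between AXL and the ERK outputs was not tested.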
